A study of Mus musculus with 6 samples.

Results

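The matrix genes described here are the collagen chains, the laminin chains and the integrin subunits of the mouse lateral ganglionic eminence (LGE), the part of the embryonic ventral forebrain that gives rise to striatal projection neurons and to olfactory bulb interneurons. They were chosen by gene name (Col, Lama, Lamb or Lamc with their numbers, Itga or Itgb with a number, and Itgav) and by a total of at least 60 reads over the 6 libraries. This gave 63 genes of 21286 in the deposited table, namely 35 collagens, 10 laminins and 18 integrins. A further 11 rows matched the names but had 4 to 38 reads in all. The members just inside the read minimum were Itgb2, Col14a1 and Col5a3 with 70, 71 and 76 reads, and the rows just outside it were Col4a3 and Col19a1 with 38 and 30 reads.

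Total RNA was sequenced from dissected LGE at embryonic day 16.5, in 3 libraries from Dlx1/2 -/- mutants and 3 from wild type littermates. All 6 libraries carry the same mixed background of C57BL/6J, 129S6 and CD1. Dlx1 and Dlx2 are homeobox transcription factors of the ganglionic eminences, and the mutants are labelled Dlx1/2 -/-. Since no label says whether a library is 1 embryo or a pool, the p-values speak only for the variation among these 6 libraries, part of which may be technical.

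Total counts were 15670067 to 16196974 in mutant libraries and 10711630 to 16588359 in wild type libraries. Dlx2 was at 15.5 to 18.7 CPM (counts scaled to a common library size) in mutant libraries and at 419 to 471 CPM in wild type libraries, and Dlx1 at 109 to 138 CPM and 831 to 898 CPM. Of 12 LGE and striatal markers, 10 were lower in the mutant (83.3%), 1 was higher (8.33%) and 1 did not pass the test. Of all genes tested, 12.8% were lower and 11.2% higher. Their summed level was 1516 to 1638 CPM in mutant libraries and 3892 to 4130 CPM in wild type libraries.

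Collagens are triple-helical proteins that build fibrils, sheets and beaded filaments outside the cell. Laminins are cross-shaped trimers of an alpha, a beta and a gamma chain that, with collagen IV, form the basement membrane under the pial surface and around blood vessels. Integrins are receptors made of an alpha and a beta subunit that bind these proteins and link them to the actin cytoskeleton. In the embryonic brain the end-feet of radial glia, the progenitors of neurons, attach to the pial and vascular basement membranes through such receptors.

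The gene starts of a few collagens are shown because Col6a1, Col4a4 and Col28a1 had the strongest changes among the collagens, and Col6a2 and Col4a1, which did not pass the test, encode chains of the same collagens as Col6a1 and Col4a4. Each sequence holds the 250 bases before the gene's start in RefSeq on GRCm38.p6, on the gene's own strand, with capitals at matches to 5 short motifs on either strand. RefSeq and GENCODE M21 place some starts differently, so 124 bases of the Col6a1 window and 226 bases of the Col6a2 window lie inside the gene as GENCODE M21 annotates it. The other windows shown have 0 bases inside their own gene. The Col4a1 window lies inside Col4a2, and part of the Col4a4 window inside Col4a3. A second RefSeq start of Col6a2 has a window (chr10:76623631-76623880) with 0 bases inside the gene and 1 GC box, at 59.2% GC, which is not shown. Of the 63 members, 45 have a start in the RefSeq set of gene starts used here. Col6a1 (chr10:76726045-76726294, minus strand) and Col6a2 (chr10:76623405-76623654, minus strand) are neighbours. Col4a1 (chr8:11312827-11313076, minus strand) faces away from Col4a2, and Col4a4 (chr1:82586850-82587099, minus strand) faces away from Col4a3. Col28a1 (chr6:8192618-8192867, minus strand) had the largest rise among the members.
Col6a1: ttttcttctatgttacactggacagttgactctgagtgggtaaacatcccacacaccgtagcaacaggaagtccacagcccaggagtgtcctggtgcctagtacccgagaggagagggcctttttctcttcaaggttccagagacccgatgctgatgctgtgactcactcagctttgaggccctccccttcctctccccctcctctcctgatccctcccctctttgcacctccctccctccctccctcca
Col6a2: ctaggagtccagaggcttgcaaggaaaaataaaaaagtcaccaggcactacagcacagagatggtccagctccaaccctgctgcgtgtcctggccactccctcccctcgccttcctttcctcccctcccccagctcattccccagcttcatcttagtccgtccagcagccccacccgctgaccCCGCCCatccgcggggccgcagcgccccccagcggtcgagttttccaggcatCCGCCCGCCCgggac
Col4a1: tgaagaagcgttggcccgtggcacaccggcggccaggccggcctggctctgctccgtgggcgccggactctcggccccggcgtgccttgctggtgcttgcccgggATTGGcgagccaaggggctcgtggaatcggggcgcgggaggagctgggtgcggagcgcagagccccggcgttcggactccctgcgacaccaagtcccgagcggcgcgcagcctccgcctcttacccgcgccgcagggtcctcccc
Col4a4: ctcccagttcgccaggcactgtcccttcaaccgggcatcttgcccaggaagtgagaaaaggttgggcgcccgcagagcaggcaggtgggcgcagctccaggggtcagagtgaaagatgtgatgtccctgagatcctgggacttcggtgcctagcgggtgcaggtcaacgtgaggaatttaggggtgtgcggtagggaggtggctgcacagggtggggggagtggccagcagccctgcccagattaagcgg
Col28a1: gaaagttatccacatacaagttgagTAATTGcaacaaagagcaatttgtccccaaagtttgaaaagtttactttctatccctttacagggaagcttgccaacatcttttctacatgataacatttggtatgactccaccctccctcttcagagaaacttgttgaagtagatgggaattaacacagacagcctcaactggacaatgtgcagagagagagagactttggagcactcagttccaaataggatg

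The motifs were the homeodomain core TAATTA and its variant TAATTG, the GC box GGGCGG, the TATA box TATAAA and the CCAAT box. They occur in 4.84%, 7.17%, 32.7%, 12.4% and 33.9% of all 32851 windows of this length. The Col6a1 and Col4a4 windows held none of the 5, the Col6a2 window held 3 GC boxes of which the last 2 overlap, the Col4a1 window 1 CCAAT box and the Col28a1 window 1 TAATTG. Base composition differed too, with GC contents of 56.0% for Col6a1, 64.4% for Col6a2, 74.4% for Col4a1, 62.8% for Col4a4 and 40.4% for Col28a1, beside a median of 52.4% over all windows. These matches describe the windows and say nothing of which factor binds there.

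In the mutant 16 of the 63 genes were higher and 8 lower, while 39 did not pass the test (quasi-likelihood F test of edgeR, threshold of 0.05 on the Benjamini-Hochberg adjusted p, which all adjusted p-values below refer to). All 63 passed the filter on low counts. The genes that rose make up 25.4% of the members, beside 11.2% of all 15326 genes tested, and those that fell make up 12.7%, beside 12.8% of all genes, so the share that fell is that of the background. In bulk tissue, fewer cells of a type and less RNA per cell cannot be told apart. In all, 38.1% of the members were called, beside 24.0% of all genes. The median log2 fold change was 0.14 over the members and 0.00 over all genes tested. Mutant and wild type libraries did not overlap for 34 of the 63, or 54%, beside 41.9% of all genes. Leaving out 1 library at a time gave 11 to 14 higher members and 4 to 9 lower ones. The lower count was 5 without mutant replicate 2 and 4 without wild type replicate 3. Of the 24 called members, 14 kept the call whichever 1 library was left out, 11 changed by at least 2-fold and 10 by less than 1.5-fold.

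**Figure D1:**
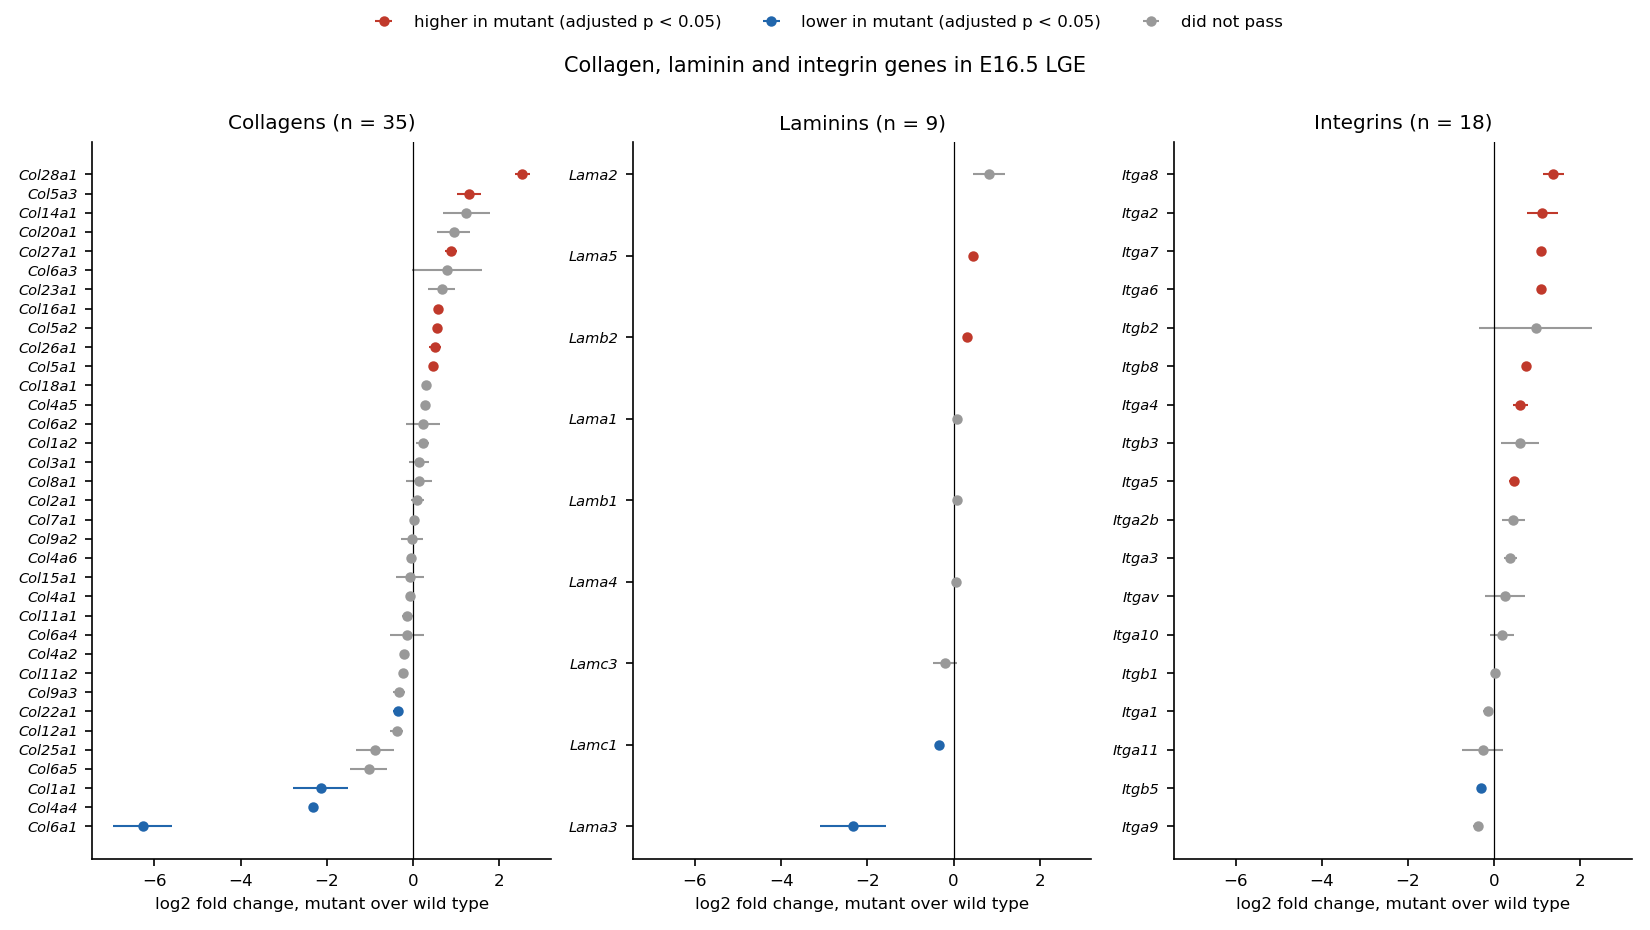
Log2 fold change (mutant over wild type) of 35 collagens, 9 laminins and 18 integrins, with bars for the SE from the spread between 3 mutant and 3 wild type libraries; red marks genes higher and blue genes lower in the mutant at adjusted p below 0.05, and grey those that did not pass. Most points lie within 1 unit of 0, Col6a1 stands alone near −6.27, and 14 of 18 integrins lie to the right of 0.

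Collagen VI forms beaded microfibrils whose assembly needs an alpha 1, an alpha 2 and a longer chain such as alpha 3. Col6a1, the alpha 1 chain (chromosome 10, 76708792 to 76726168, minus strand, GENCODE M21 on GRCm38), had 1, 6 and 4 reads in mutant libraries and 139, 337 and 317 reads in wild type libraries. All mutant libraries lay far below all wild type ones, at 0.231 ± 0.160 CPM in the mutant and 18.1 ± 4.39 CPM in wild type (mean ± SD, n = 3 each). This is a log2 fold change of −6.27 ± 0.686 (SE), or 76.9-fold lower, with adjusted p = 1.49e-05, and leaving out any 1 library gave −5.81 to −6.80.

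Col6a2, the alpha 2 chain, lies 85162 bases from Col6a1 on the same strand. It stood at 1.22, 1.01 and 0.881 CPM in mutant libraries and at 1.24, 0.520 and 0.966 CPM in wild type libraries. The groups overlapped and the gene did not pass the test (0.23 ± 0.386, adjusted p = 0.680), and without wild type replicate 2 its sign turned (−0.07). Col6a3, the alpha 3 chain, ran from 1.71 to 6.54 CPM in mutant libraries and from 1.03 to 4.30 CPM in wild type libraries, a spread within each group that left 0.78 ± 0.813 with adjusted p = 0.375. Col6a5, one of the longer chains that can take the place of alpha 3, was at 0.888 ± 0.463 CPM in the mutant and 1.81 ± 0.274 CPM in wild type and did not pass (adjusted p = 0.0773), though it did without mutant replicate 1 (−1.52, adjusted p = 0.0230). Col6a4 was at 1.52 ± 0.427 and 1.63 ± 0.601 CPM.

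Per length, in the deposited FPKM (reads scaled by gene length and library size), the wild type level of Col6a1 averaged 3.97 FPKM and ranked 10th of the 63 members, while in the mutant it averaged 0.0512 FPKM and ranked 62nd. Of the FPKM summed over Col6a1, Col6a2 and Col6a3, Col6a1 took 3.01%, 25.5% and 8.70% in mutant libraries and 86.4%, 95.7% and 95.7% in wild type libraries. The other 2 chains had few reads in both groups, at 0.124 FPKM of Col6a2 in the mutant and 0.107 FPKM in wild type, and 0.299 and 0.180 FPKM of Col6a3.

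Collagen IV is the sheet-forming collagen of basement membranes, and its 6 chains are encoded by 3 pairs of genes that face away from each other. The main pair of brain vessels, Col4a1 and Col4a2, whose annotated ends overlap by 22 bases, was the most abundant of all collagens and did not pass the test. Col4a1 was at 142, 155 and 158 CPM in mutant libraries and at 152, 176 and 153 CPM in wild type libraries (−0.08 ± 0.0820, adjusted p = 0.479). Col4a2 was at 86.7, 98.1 and 102 CPM in mutant libraries and at 97.4, 115 and 116 CPM in wild type libraries (−0.20 ± 0.110, adjusted p = 0.154), and it passed without wild type replicate 1 (−0.28, adjusted p = 0.0452). Both groups overlapped for either gene.

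Col4a4, a chain of the specialised collagen IV of kidney and inner ear membranes, was the member of this group that fell. It was at 2.19, 2.09 and 2.14 CPM in mutant libraries and at 11.9, 10.1 and 10.3 CPM in wild type libraries. No mutant library came near a wild type one, and the log2 fold change was −2.32 ± 0.0749, with adjusted p = 1.73e-05. Its partner Col4a3 starts 72 bases away on the other strand and had 6, 6 and 6 reads in mutant libraries and 4, 11 and 5 in wild type libraries, too few for a test. The pair on the X chromosome did not pass: Col4a5 was at 23.8 ± 0.781 CPM in the mutant and 19.5 ± 1.66 CPM in wild type (0.29 ± 0.0745, adjusted p = 0.0534, and 0.0329 without wild type replicate 3), and Col4a6 at 6.51 ± 0.205 and 6.75 ± 0.629 CPM. Of the FPKM of all 6 chains, Col4a1 and Col4a2 together held the bulk in both groups, with means of 54.6% and 35.3% in the mutant and 52.9% and 37.2% in wild type, and Col4a4 took 0.4996% in the mutant and 2.32% in wild type.

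**Figure D2:**
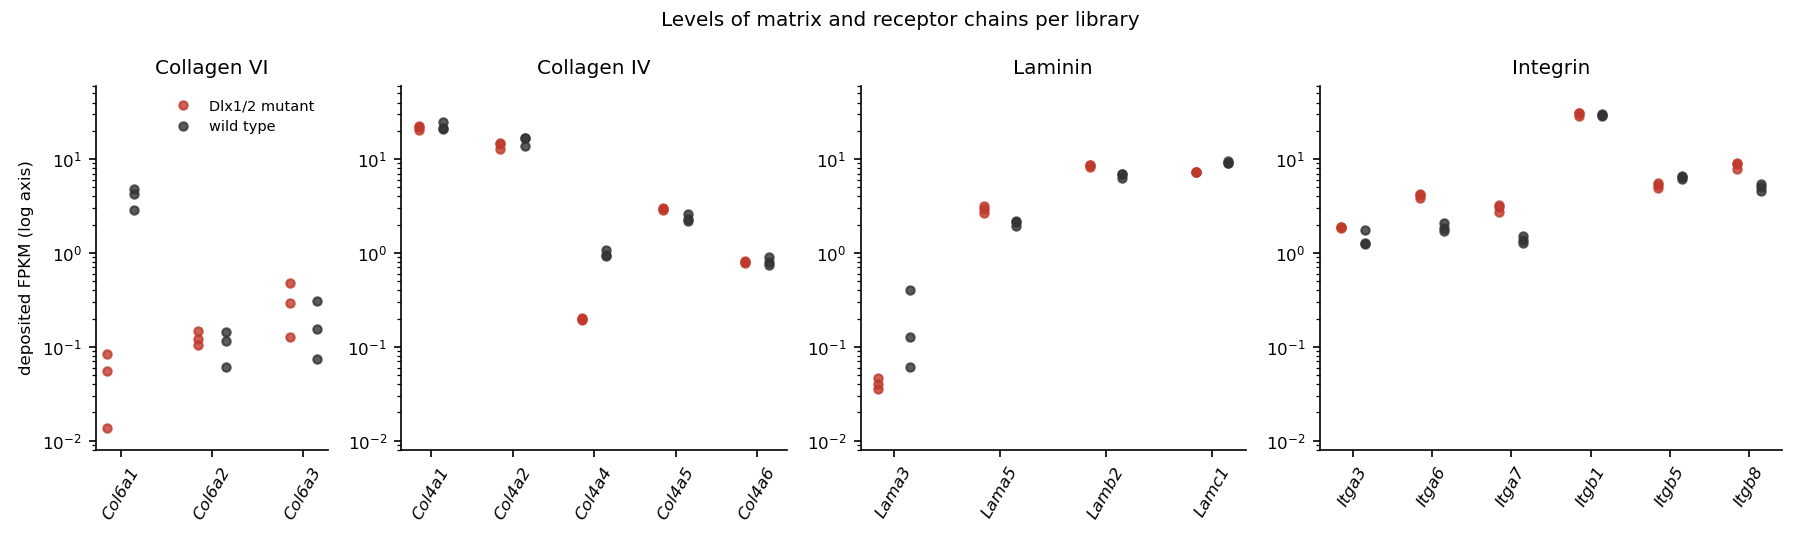
Deposited FPKM per library (log axis) of chains of collagen VI, collagen IV, laminins and integrins, with the 3 mutant libraries in red left of the 3 wild type libraries in dark grey. Col6a1 and Col4a4 lie lower in the mutant while Col4a1, Col4a2 and Itgb1 overlap, and Itga6, Itga7 and Itgb8 lie higher in the mutant.

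Among the fibrillar collagens, which form the tensile fibres of connective tissue, 4 of 10 rose, 1 fell and 5 did not pass. The rises are 40%, beside 11.2% of all genes, and the fall is 10%, near the 12.8% of all genes. The chains of collagen V, which helps start fibrils, rose together. Col5a2 was at 48.8, 50.5 and 49.9 CPM in mutant libraries and at 34.2, 31.4 and 35.7 CPM in wild type libraries, with the groups well apart (0.56 ± 0.0569, adjusted p = 9.23e-04). Col5a1 was at 13.2 ± 0.743 CPM in the mutant and 9.66 ± 0.853 CPM in wild type (0.46 ± 0.0864, adjusted p = 0.0165). Col5a3 was rare, at 1.28, 1.14 and 1.07 CPM in mutant libraries and 0.287, 0.585 and 0.483 CPM in wild type libraries (1.299 ± 0.272, adjusted p = 0.0185). Col27a1, a fibrillar chain of cartilage, was at 11.8, 13.3 and 10.8 CPM in mutant libraries and 6.60, 5.65 and 7.24 CPM in wild type libraries (0.88 ± 0.135, adjusted p = 0.00271).

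The calls on Col5a2 and Col27a1 held whichever 1 library was left out. That on Col5a1 was lost without mutant replicate 2 or 3 or wild type replicate 2 or 3 (adjusted p = 0.0513 to 0.0585), and that on Col5a3 without mutant replicate 1 or 2 or wild type replicate 3 (adjusted p = 0.0549 to 0.0648). Col5a2 lies 24615 bases from Col3a1, a fibrillar collagen of vessel walls, which was at 3.23 ± 0.589 CPM in the mutant and 2.90 ± 0.576 CPM in wild type and did not pass (adjusted p = 0.706).

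Collagen I is a trimer of the products of Col1a1 and Col1a2, and the fall among fibrillar genes was in Col1a1. It was at 0.853, 1.46 and 0.755 CPM in mutant libraries and at 6.22, 1.82 and 5.73 CPM in wild type libraries. The groups did not overlap, yet wild type replicate 2 came close to the mutant libraries and the spread was wide (−2.14 ± 0.634, adjusted p = 0.0163). Without mutant replicate 1 or 3 or wild type replicate 3 the gene no longer passed (adjusted p = 0.0553 to 0.0631). Col1a2 was at 7.38, 9.05 and 7.23 CPM in mutant libraries and at 6.50, 7.80 and 5.91 CPM in wild type libraries, with overlapping groups (0.23 ± 0.155, adjusted p = 0.345). The most abundant fibrillar chains beside Col5a2 did not pass. Col2a1, the collagen of cartilage, averaged 3.96 FPKM in the mutant and 3.63 FPKM in wild type, and had 25.8, 34.3 and 25.3 CPM in mutant libraries and 26.7, 27.5 and 25.3 CPM in wild type libraries. Its groups overlapped, and its log2 fold change was 0.10 with all libraries and −0.05 without mutant replicate 2. Col11a2 averaged 2.87 FPKM in the mutant and 3.29 FPKM in wild type, and Col11a1, its partner in collagen XI, 2.50 and 2.69 FPKM.

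The FACIT collagens sit on the surface of fibrils, and 1 of 7 rose, 1 fell and 5 did not pass. The rise and the fall are each 14.3% of them, near the 11.2% and 12.8% of all genes. Col16a1 was at 16.3 ± 1.36 CPM in the mutant and 10.8 ± 0.829 CPM in wild type (0.58 ± 0.0945, adjusted p = 0.00581). Col22a1, the most abundant of them per length, was at 37.2, 35.7 and 43.8 CPM in mutant libraries and at 54.6, 46.9 and 47.9 CPM in wild type libraries (−0.35 ± 0.114, adjusted p = 0.0356). This call was lost without any 1 library other than mutant replicate 3 (adjusted p = 0.0535 to 0.119). Col20a1 was at 3.58 ± 0.295 CPM in the mutant and 1.81 ± 0.896 CPM in wild type, and it passed only without wild type replicate 3 (1.47, adjusted p = 0.00700; 0.0658 with all libraries). Col9a3 was at 23.8 ± 1.08 and 29.8 ± 4.63 CPM, and it passed only without wild type replicate 1 (−0.45, adjusted p = 0.0120; 0.0788 with all libraries). The other FACIT genes did not pass, with log2 fold changes of −0.38 for Col12a1, 1.24 for the rare Col14a1 and −0.02 for Col9a2.

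Col28a1, a collagen of peripheral nerve whose chain carries von Willebrand factor A domains, showed the largest rise of all members. It was at 7.38, 8.48 and 5.60 CPM in mutant libraries and at 1.24, 1.23 and 1.21 CPM in wild type libraries. Every mutant library was well above the wild type ones, which lay close together (2.54 ± 0.176, a 5.80-fold rise, adjusted p = 1.11e-04). Col26a1 was at 12.4, 11.6 and 14.3 CPM in mutant libraries and 7.94, 10.2 and 8.45 CPM in wild type libraries (0.52 ± 0.139, adjusted p = 0.0259), a call lost without mutant replicate 1 or 3 or wild type replicate 1 or 3 (adjusted p = 0.0642 to 0.0867). Col25a1, a transmembrane collagen of neurons, was at 30.0, 25.4 and 11.6 CPM in mutant libraries and at 34.2, 46.3 and 43.2 CPM in wild type libraries. All its mutant values were lower, with the lowest in mutant replicate 3, and the gene did not pass with all libraries (−0.89 ± 0.440, adjusted p = 0.0672). It passed only without mutant replicate 1 (adjusted p = 0.0458) or without mutant replicate 3 (adjusted p = 0.0385). Col18a1, the heparan sulfate collagen of vessel and pial membranes, was at 17.9, 17.3 and 20.6 CPM in mutant libraries and 14.8, 15.01 and 15.7 CPM in wild type libraries. Its groups did not overlap, and it did not pass (0.29, adjusted p = 0.0645). Col15a1, the other collagen of this kind, and Col23a1, Col7a1 and Col8a1 did not pass either, with log2 fold changes of −0.07, 0.66, 0.01 and 0.13.

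**Figure D3:**
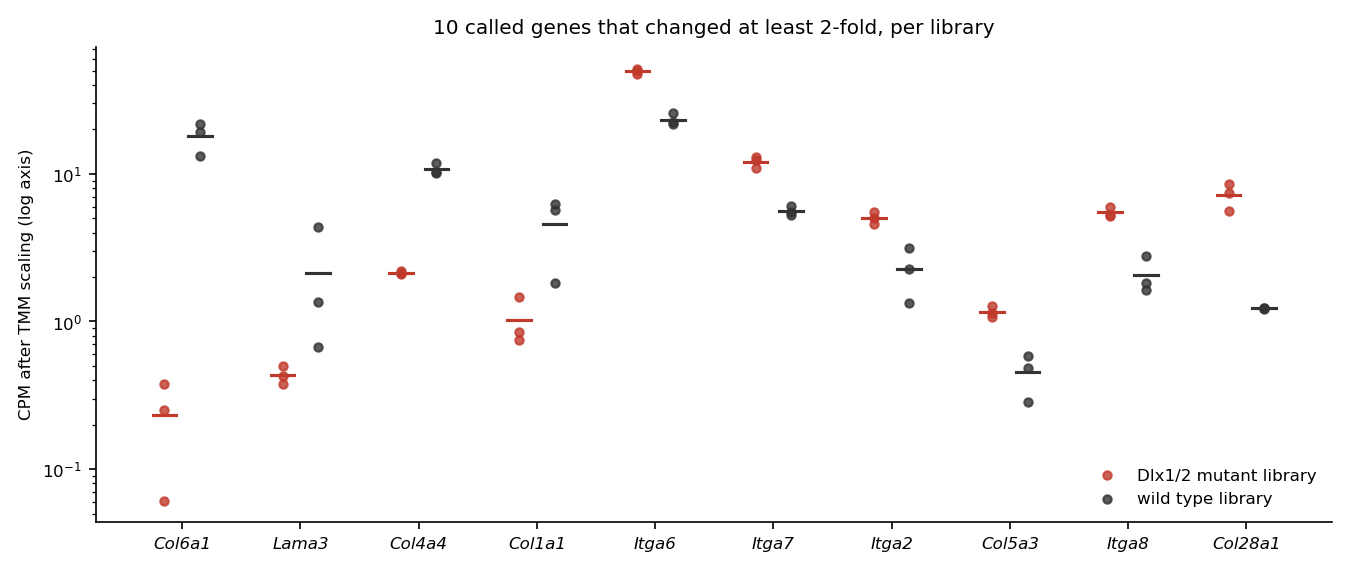
Library-scaled counts (CPM after TMM scaling, log axis) of 10 called genes that changed at least 2-fold, with 1 point per library and a line at the mean of 3, mutant in red left of wild type in dark grey. No gene has overlapping groups. Among the wild type points, those of Lama3 and Col1a1 are the widest spread, and those of Col28a1 lie on top of each other. The mutant points of Col6a1 are also widely spread, from 0.061 to 0.380 CPM.

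Of the 10 laminin genes 2 rose, or 20%, and 3 fell, or 30%, beside 11.2% and 12.8% of all genes, and 5 did not pass. Of the alpha chains, Lama5, a main chain of vascular and pial membranes, was the most abundant per length, at 2.92 FPKM in the mutant and 2.10 FPKM in wild type. It rose, with 38.2, 32.6 and 36.4 CPM in mutant libraries and 27.1, 24.2 and 27.2 CPM in wild type libraries (0.45 ± 0.0870, adjusted p = 0.00829). Lama4, the other main chain of endothelial membranes, was at 24.1 ± 0.288 CPM in the mutant and 23.2 ± 0.257 CPM in wild type (adjusted p = 0.630), and Lama1, a chain of the pial membrane, at 12.3 ± 0.987 and 11.6 ± 0.552 CPM (adjusted p = 0.620). Lama2 was at 5.32 ± 1.64 CPM in the mutant and 2.97 ± 0.881 CPM in wild type and did not pass in the main test (adjusted p = 0.0843). It did pass without mutant replicate 1 (1.05, adjusted p = 0.0320) and, with all libraries, when the replicate number was a block (0.84, adjusted p = 0.04375).

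Of the beta chains, Lamb2 rose and was the main one, with 60.5, 63.5 and 64.2 CPM in mutant libraries and 52.5, 46.8 and 51.6 CPM in wild type libraries (0.32 ± 0.0576, adjusted p = 0.0116). Lamb1 was at 23.0 ± 0.533 and 21.7 ± 2.11 CPM (adjusted p = 0.584). Lamc1, the gamma chain of most brain laminins, fell. It was at 73.0, 74.3 and 74.7 CPM in mutant libraries and at 93.9, 96.7 and 92.3 CPM in wild type libraries, with little spread inside either group (−0.35 ± 0.0222, adjusted p = 0.00201). The calls on Lama5, Lamb2 and Lamc1 held whichever 1 library was left out.

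Lama3 and Lamb3 encode chains of the laminin of epithelial anchorage in skin. Lama3 had 7, 6 and 8 reads in mutant libraries and 7, 21 and 72 reads in wild type libraries. After scaling it was lower in every mutant library, but wild type replicate 3 held most of the wild type reads: the log2 fold change was −2.33 ± 0.769 (adjusted p = 0.0421) with all libraries and −1.27 (adjusted p = 0.0829) without that one. The call was also lost without any 1 mutant library (adjusted p = 0.0985 to 0.115). Lamb3 had 3, 8 and 7 reads in mutant libraries and 3, 3 and 4 in wild type libraries. Lamc3 was at 4.19 ± 1.06 CPM in the mutant and 4.87 ± 1.10 CPM in wild type (adjusted p = 0.599).

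Of the 18 integrins 7 rose, or 38.9%, beside 11.2% of all genes, 1 fell, or 5.56%, beside 12.8%, and 10 did not pass. The median log2 fold change was 0.44. Without mutant replicate 3 the count of rises was 4. The fall was lost without mutant replicate 2 or 3 or wild type replicate 2 or 3. Among the alpha subunits that bind laminin, Itga6, a surface protein of radial glia and of other stem cells, was at 50.2, 51.7 and 47.5 CPM in mutant libraries and at 21.6, 22.6 and 25.8 CPM in wild type libraries. Itga7, a laminin receptor of muscle and glia, was at 12.9, 10.9 and 12.3 CPM in mutant libraries and at 5.26, 5.52 and 6.10 CPM in wild type libraries. Both stood well apart and rose by the same 2.13-fold (Itga6 1.09 ± 0.0834, adjusted p = 6.47e-05; Itga7 1.09 ± 0.0935, adjusted p = 4.49e-04), and both calls held whichever 1 library was left out. Itga3, the remaining gene of this group, was at 12.6 ± 0.341 CPM in the mutant and 9.67 ± 1.82 CPM in wild type (0.37 ± 0.151, adjusted p = 0.0965), and it passed only without wild type replicate 3 (0.54, adjusted p = 0.0169).

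Itga6 lies on chromosome 2 from 71745616 to 71858416, which is 198862 bases from the span of the targeted genes Dlx1 and Dlx2. Of the 19 other tested genes within 1 Mb of that span, Itga6 among them, 4 were higher and 4 lower, or 42.1%, beside 24.0% of all genes. The part that nearness to the targeted locus has in the Itga6 value was not tested.

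Of the alpha subunits that recognise the short RGD peptide of fibronectin and related proteins, Itga8 and Itga5 rose. Itga8 was at 5.97, 5.19 and 5.28 CPM in mutant libraries and at 1.63, 1.82 and 2.78 CPM in wild type libraries (1.37 ± 0.237, a 2.59-fold rise, adjusted p = 0.00309). Annotated exons of an antisense gene overlap 5.05% of its exon length, and the labels name no strand setting for the counts. Itga5, the fibronectin receptor subunit, was at 11.1, 13.9 and 12.6 CPM in mutant libraries and 9.18, 9.88 and 8.45 CPM in wild type libraries (0.45 ± 0.113, adjusted p = 0.0314), a call lost without any 1 library except mutant replicate 1 (adjusted p = 0.0514 to 0.110). Itgav, the alpha subunit that pairs with many beta subunits, had 1 high library in each group, at 11.8, 10.8 and 23.4 CPM in mutant libraries and 9.18, 18.3 and 10.7 CPM in wild type libraries. It did not pass (adjusted p = 0.646), and its sign turned without mutant replicate 3 (−0.18). Itga2b, the platelet subunit of this kind, did not pass (0.44, adjusted p = 0.237).

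Itga2, a collagen receptor of platelets and epithelia, was at 4.57, 4.999 and 5.53 CPM in mutant libraries and at 1.34, 2.27 and 3.14 CPM in wild type libraries (1.12 ± 0.356, adjusted p = 0.0191). The groups did not overlap, and the call was lost without mutant replicate 2 or 3 or wild type replicate 2 (adjusted p = 0.0536 to 0.0651). Its neighbour Itga1, a collagen IV receptor 20996 bases away, was the most abundant collagen-binding subunit in the deposited FPKM. This rank rests on the authors' lengths, which were 32.2% of the summed exon length in GENCODE M21 for Itga1 and 138.5% for Itga10. Itga1 was at 10.4, 11.2 and 8.93 CPM in mutant libraries and 10.3, 12.02 and 11.5 CPM in wild type libraries, with overlapping groups (adjusted p = 0.398). Itga10 and Itga11, the other collagen receptors, did not pass (0.17 and −0.27). Itga4, a receptor for fibronectin and VCAM, was at 13.4, 11.6 and 12.3 CPM in mutant libraries and 6.70, 9.88 and 7.79 CPM in wild type libraries (0.60 ± 0.173, adjusted p = 0.0223), a call lost without mutant replicate 1 or 3 or wild type replicate 3 (adjusted p = 0.0599 to 0.0794). Exons of Cerkl on the other strand overlap 8.04% of its exon length. Itga9, its relative, did not pass (−0.37, adjusted p = 0.196).

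Itgb1, the beta subunit shared by most of these receptors, was the most abundant member per length in both groups, at 30.2 FPKM in the mutant and 29.6 FPKM in wild type. It was at 172, 172 and 164 CPM in mutant libraries and at 168, 172 and 166 CPM in wild type libraries, with a log2 fold change of 0.01 ± 0.0270 (adjusted p = 0.931). Itgb8, the partner of Itgav in a receptor that activates TGF-beta and that is made by radial glia, rose, with 122, 119 and 106 CPM in mutant libraries and 76.0, 62.9 and 68.2 CPM in wild type libraries (0.75 ± 0.102, a 1.68-fold rise, adjusted p = 5.87e-04). Itgb5, another partner of Itgav, was at 25.0, 24.4 and 22.6 CPM in mutant libraries and at 28.7, 30.7 and 29.9 CPM in wild type libraries (−0.31 ± 0.0526, adjusted p = 0.0219); this call was lost without mutant replicate 2 or 3 or wild type replicate 2 or 3 (adjusted p = 0.0536 to 0.0739).

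Itgb1, Itgb3, Itgb5 and Itgb8 are among the beta subunits known to pair with Itgav. Of their summed FPKM, Itgb8 held 19.9%, 19.5% and 18.5% in mutant libraries and 13.4%, 11.04% and 12.2% in wild type libraries. Itgb5 held 12.04%, 11.9% and 11.7% in mutant libraries and 14.96%, 15.95% and 15.8% in wild type libraries. In these FPKM the order of Itgb8 and Itgb5 was thus the opposite in every mutant library to that in every wild type library. That order rests on the authors' gene lengths, which are 13623 bases for Itgb8 and 4606 for Itgb5. In CPM, which are not scaled by length, Itgb8 was above Itgb5 in every library, with means of 69.0 and 29.8 CPM in wild type. Itgb2, the subunit of leukocytes, and Itgb3, that of platelets and endothelium, were rare, at 0.998 ± 0.125 and 2.05 ± 0.477 CPM in the mutant and 0.463 ± 0.428 and 1.31 ± 0.625 CPM in wild type, and did not pass (adjusted p = 0.284 and 0.268).

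Other genes of the matrix and of adhesion were taken from 4 lists. Of 15 other matrix proteins, 4 rose (26.7%, beside 11.2% of all genes), 1 fell (6.67%, beside 12.8%) and 10 did not pass (median 0.14). Npnt, which encodes nephronectin, a ligand of the Itga8 receptor, was at 33.0, 32.8 and 35.0 CPM in mutant libraries and at 5.93, 5.52 and 5.85 CPM in wild type libraries (2.54 ± 0.0445, adjusted p = 1.16e-06). The ligand and its receptor subunit were thus both higher in all 3 mutant libraries than in any wild type one. Spp1, or osteopontin, which binds Itgav receptors, was at 9.32 ± 1.29 CPM in the mutant and 0.988 ± 0.235 CPM in wild type (3.20 ± 0.220, adjusted p = 2.79e-05). Mfge8, another RGD ligand, was at 248 ± 40.5 and 147 ± 27.1 CPM (0.75 ± 0.198, adjusted p = 0.00822). Thbs1, a secreted glycoprotein that binds integrins, fell, with 19.2, 24.3 and 21.1 CPM in mutant libraries and 64.1, 44.6 and 45.4 CPM in wild type libraries (−1.25 ± 0.197, adjusted p = 9.13e-04).

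Of 21 tested genes of collagen synthesis and crosslinking, 2 rose (9.52%, near the 11.2% of all genes), 5 fell (23.8%, beside 12.8%) and 14 did not pass (median 0.02). P4ha2, a prolyl hydroxylase of collagen, was at 8.23, 7.02 and 7.67 CPM in mutant libraries and 12.8, 14.1 and 15.8 CPM in wild type libraries (−0.90 ± 0.109, adjusted p = 0.00118). The lysyl hydroxylase gene Plod2 was at 19.1 ± 1.09 CPM in the mutant and 27.5 ± 1.40 CPM in wild type (−0.52 ± 0.0631, adjusted p = 0.00309). The lysyl oxidase relatives Loxl1 and Loxl3 rose (0.84 ± 0.140, adjusted p = 0.00530, and 0.44 ± 0.0750, adjusted p = 0.0155). The call on Loxl3 was lost without mutant replicate 1 or 3 or wild type replicate 2 or 3 (adjusted p up to 0.0586), which left 1 rise in the list. The count of falls was 4 without wild type replicate 1 and 2 or 3 without any other 1 library.

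Of 19 tested genes of integrin adhesion and signalling, 1 rose (5.26%, beside 11.2% of all genes), 3 fell (15.8%, near the 12.8% of all genes) and 15 did not pass (median 0.01). Tns3, a tensin that binds beta subunit tails, was at 121 ± 3.11 CPM in the mutant and 80.4 ± 4.76 CPM in wild type (0.59 ± 0.0532, adjusted p = 2.78e-04), and Vcl, or vinculin, which ties integrins to actin, was at 20.8 ± 1.38 and 35.1 ± 1.61 CPM (−0.75 ± 0.0673, adjusted p = 4.17e-04). The focal adhesion kinase gene Ptk2 fell by 0.22 on the log2 scale (adjusted p = 0.0193), a call lost without mutant replicate 2 or 3 (adjusted p = 0.0523 to 0.0695). Parvb, an actin-linked partner of integrins, fell by 0.38 (adjusted p = 0.0290), a call lost without any 1 library except wild type replicate 1 (adjusted p = 0.0569 to 0.103). The count of falls was 1 without mutant replicate 2 or mutant replicate 3. Among 12 other matrix receptors, 2 rose (16.7%, beside 11.2% of all genes), 1 fell (8.33%, beside 12.8%) and 9 did not pass (median −0.02). Adgrg1, an adhesion receptor for collagen III, was at 550 ± 16.5 CPM in the mutant and 372 ± 9.79 CPM in wild type (0.56 ± 0.0333, adjusted p = 9.48e-05), and Ddr1, a collagen receptor kinase, at 299 ± 23.7 and 223 ± 6.52 CPM (0.43 ± 0.0720, adjusted p = 0.00208). The laminin receptor gene Bcam fell by 0.84 (adjusted p = 0.0225), a call lost without mutant replicate 1 or 3 or wild type replicate 2 or 3 (adjusted p up to 0.0807).

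Markers of the cell types that the tissue could hold were summed per library. All 14 endothelial markers were detected. Among them 0 rose (beside 11.2% of all genes) and 2 fell (14.3%, near the 12.8% of all genes). A log2 fold change below 0 was found for 12 of the 14 (median −0.09). The list summed to 271 to 288 CPM in mutant libraries and 300 to 325 CPM in wild type libraries, so its sum was lower in every mutant library. Of the most abundant, Kdr, a VEGF receptor, and Cldn5, a tight junction protein, did not pass (−0.08 and −0.12 on the log2 scale, adjusted p = 0.495 and 0.439), and the glucose transporter gene Slc2a1 fell by 0.39 (adjusted p = 0.00390). Of 8 tested mural cell markers, 2 rose (25%, beside 11.2% of all genes), 1 fell (12.5%, near the 12.8% of all genes) and 5 did not pass. A log2 fold change below 0 was found for 6 of the 8 (median −0.33). The list had sums of 312 to 323 CPM in mutant libraries and 250 to 261 CPM in wild type libraries. The rises were in Notch3 and Pdgfrb, the most abundant of the list (0.61 and 0.49, adjusted p = 3.64e-04 and 0.00250). The fall was in Abcc9, a pericyte channel subunit gene (−0.32, adjusted p = 0.0353), a call lost without any 1 library except wild type replicate 1 (adjusted p = 0.0757 to 0.102). Rgs5, a pericyte gene, passed only without wild type replicate 1 (−0.24, adjusted p = 0.0419; 0.0886 with all libraries).

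Meningeal fibroblast markers were scarce: of 13, 3 were tested and 5 had under 10 reads in all. Aldh1a2 was at 0 reads in the mutant group and at 0, 4 and 0 reads in wild type libraries. The sums were 13.7 to 17.4 CPM in mutant libraries and 14.8 to 17.3 CPM in wild type libraries. Of 12 radial glia markers, 11 were tested, of which 6 rose (54.5%, beside 11.2% of all genes) and 0 fell (beside 12.8%). The list summed to 3516 to 3542 CPM in mutant libraries and 2367 to 2640 CPM in wild type libraries. Ptprz1, a receptor phosphatase that binds the matrix, rose by 0.79 (adjusted p = 4.99e-05) and Nes, an intermediate filament gene, by 0.45 (adjusted p = 0.00847). Fabp7, a fatty acid binding protein gene, rose by 0.25 (adjusted p = 0.0427), a call lost without mutant replicate 1 or 2 or wild type replicate 2 or 3 (adjusted p = 0.0879 to 0.129). Of the 11 tested markers, 10 had a log2 fold change above 0, and Slc1a3 was at −0.19 (adjusted p = 0.0748). The radial glia sum was higher in every mutant library, as were Itga6, Itga7, Itgb8, Lama5 and Lamb2, and its part in those values was not tested. It was not alone in this: the mural, oligodendrocyte precursor, microglia and leukocyte, pallial excitatory and choroid plexus sums were also higher in every mutant library. The 4 oligodendrocyte precursor markers summed to 113 to 128 CPM in mutant libraries and 63.3 to 98.6 CPM in wild type libraries. Among them 2 rose (50%, beside 11.2% of all genes).

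The 13 microglia and leukocyte markers summed to 76.1 to 89.1 CPM in mutant libraries and 58.7 to 70.7 CPM in wild type libraries. Among them 2 were higher (15.4%, near the 11.2% of all genes) and 0 lower (beside 12.8%). Pallial excitatory markers summed to 102 to 153 CPM in mutant libraries and 20.0 to 57.7 CPM in wild type libraries, with 3 of 5 tested higher (60%, beside 11.2%). The 3 medial eminence markers summed to 206 to 252 CPM in mutant libraries and 190 to 350 CPM in wild type libraries, with 1 lower (33.3%, beside 12.8%). Platelet markers summed to 11.03 to 13.9 CPM in mutant libraries and 12.9 to 15.5 CPM in wild type libraries, most of it Gp1bb, and cartilage markers to 0.696 to 1.20 CPM and 1.09 to 2.14 CPM. Only 1 gene of either list could be tested, and neither passed. Choroid plexus markers summed to 29.7 to 36.1 CPM in mutant libraries and 7.47 to 10.1 CPM in wild type libraries, most of it Otx2, a homeobox gene of other brain regions as well, while Ttr, their defining gene, had 5 reads in the mutant group and 6 in the wild type group. Of the 3 tested genes of this list, 2 rose (66.7%, beside 11.2% of all genes) and 1 fell (33.3%, beside 12.8%). Otx2 rose by 2.26 on the log2 scale (adjusted p = 4.07e-05) and the water channel gene Aqp1 by 1.35 (adjusted p = 0.0291), a call lost without mutant replicate 1 or 2 or wild type replicate 2 or 3 (adjusted p = 0.0912 to 0.101). Clic6, a chloride channel gene, fell, with 1, 0 and 2 reads in mutant libraries and 11, 20 and 12 reads in wild type libraries (adjusted p = 0.00283). The part of any of these lists in the values of the matrix genes was not tested.

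**Figure D4:**
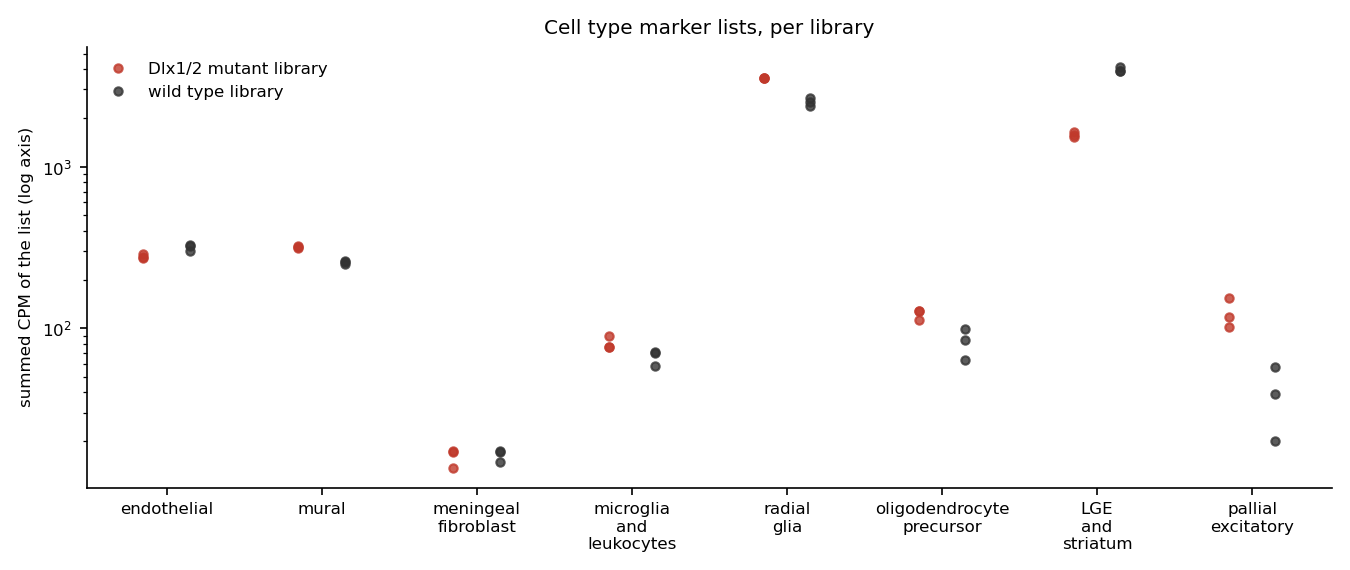
Summed level of cell type marker lists per library (CPM after TMM scaling, log axis), with 3 mutant libraries in red left of 3 wild type libraries in dark grey. Endothelial sums are 271 to 288 CPM in the mutant and 300 to 325 CPM in wild type, radial glia sums lie higher in every mutant library, and meningeal sums are under 18 CPM in all libraries.

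Levels among the members covered a wide range: in the deposited FPKM, 31 members averaged at least 1 FPKM in the mutant and 28 in wild type, and 3 of them, Itgb1, Col4a1 and Col4a2, reached 10 FPKM in wild type. These 3 held the first 3 ranks in both groups.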

How the data were processed

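The deposited table gives raw read counts and FPKM per gene for each of the 6 libraries, per the file headers. Per the submitters' processing notes, the tools were HISAT2 2.0.4, StringTie 1.3.0 and edgeR, with GRCm38.p4 and mm10 listed as builds and no roles stated. Which counter, annotation release and strand setting were used is not given. The deposited FPKM equal count per library total up to 1 factor per gene (checked to 1e-04 on 11418 well-counted genes, of which 11418 passed). That factor, read as a length, was a median 112% of the summed exon length in GENCODE M21, and within 5% of it for 13 members. It ran from 32.2% for Itga1 to 159.7% for Col18a1, so levels between genes rest on the authors' lengths.

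The deposited counts went through edgeR 4.0.16 under R 4.3.3: filterByExpr by group left 15326 genes, TMM scaling, quasi-likelihood F test of mutant against wild type, two-sided, Benjamini-Hochberg adjustment over all genes, threshold 0.05. CPM use TMM-scaled totals. SEs were taken from the spread of log2 CPM after adding 0.5 to each count. Values are mean ± SD over 3 libraries. A count of 3 reads is 0.181 to 0.287 CPM in a library. Replicates of a group differed beyond sampling noise (chi-square per degree of freedom 7.15 to 14.3). The procedure was tested on counts simulated from its own fit to these libraries, which does not test the calls on the real counts. Alternatives were RLE scaling, no filter, DESeq2 1.42.0, the replicate number as a block, leaving out each library and an adjusted p below 0.01.

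The members and lists were chosen with earlier results of these data known. Every member could be named, with values per library for called members of at least 2-fold change and the most abundant of each subfamily; from each other list up to 4 called genes with the smallest adjusted p, or up to 3 of the most abundant markers. Of the members, 1 laminin gene, which is part of the counts, is not reported here. Aldh1a2, Ttr, Gp1bb, Otx2, Aqp1, Clic6, Abcc9 and Cerkl were named after their values were seen. Library names share 1 prefix per genotype and no batch is labelled, so a batch that follows genotype cannot be told apart from it.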

Additional observations from a re-analysis of the deposited data

How the results depend on the processing

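RLE scaling and no filter on low counts left the counts of higher and lower members at 16 and 8. DESeq2 gave 14 and 8. At an adjusted p below 0.01 the counts were 9 higher and 4 lower members, namely 4 and 2 collagens, 1 higher laminin beside 2 lower, and 4 and 0 integrins, with 875 genes higher and 1116 lower among all genes tested. The labels do not say that a replicate number pairs samples. The deviations of same-numbered libraries from the group means correlated at −0.176, 0.0426 and −0.168. With 3 libraries per group, these values cannot decide whether the samples are paired. With the replicate block 12 members were higher and 6 lower, among them 4 higher collagens and 0 lower integrins. Leaving out 1 library gave 11 to 14 higher and 4 to 9 lower members, 5 to 6 and 2 to 5 collagens, 2 to 3 and 2 to 3 laminins, and 4 to 6 and 0 to 1 integrins. The causes were not tested.

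Called members kept their sign in every alternative; 14 of 24 also kept their call in all but the stricter threshold. Of 39 uncalled members 8 gained a call in at least 1 alternative and 11 changed sign, all 11 when 1 library was left out, with log2 fold changes of −0.065 to 0.46 (Col6a2), −0.052 to 0.18 (Col2a1), −0.042 to 0.059 (Col7a1), −0.0065 to 0.028 (Itgb1), −0.18 to 0.62 (Itgav), −0.30 to 0.081 (Col15a1), −0.19 to 0.19 (Col9a2), −0.13 to 0.017 (Col4a6), −0.63 to 0.0099 (Itga11), −0.40 to 0.079 (Col6a4) and −0.091 to 0.28 (Col8a1). With the replicate block Col9a2 was at 0.0023. Of the genes with few reads, Col5a3, Col14a1 and Itgb2 had 76, 71 and 70 reads over all 6 libraries.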

Other observations

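Of the 11 name-matched rows below the read minimum, Col8a2, which encodes a short-chain collagen of corneal and vessel membranes, had 1, 4 and 1 reads in mutant libraries and 4, 11 and 7 reads in wild type libraries. Col19a1, a FACIT collagen that some interneurons make, had 6, 1 and 0 reads in mutant libraries and 2, 5 and 16 reads in wild type libraries. Both were picked after their values were seen, and neither was tested.

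Between the Dlx1 and Dlx2 genes and Itga6 on chromosome 2 lies Platr26, a noncoding transcript, with 30, 21 and 21 reads in mutant libraries and 0, 0 and 0 reads in wild type libraries. Metap1d, 2919 bases from Dlx1, had 923, 894 and 831 reads in mutant libraries and 351, 440 and 484 reads in wild type libraries (0.86 on the log2 scale, adjusted p = 1.92e-04). Both were picked after their values were seen, and why they differ was not tested.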
